A study of Mus musculus with 8 samples.

Results

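The difference between 2 drug responses was measured across all genes with enough counts: how largazole changed RNA levels in A223 cells with a knockdown of PRDX6 (KD), set against how it changed them in parental A223 cells. All 8 of the 8 RNA-seq libraries of the study enter it, 2 replicates in each of 4 groups: KD cells after 18 h with 100 nM largazole, KD cells with DMSO at 0 h, parental cells after 18 h with 100 nM largazole, and parental cells with DMSO at 0 h. A223 is a mouse squamous cell carcinoma line, and all groups carry its background. The knockdown was set against parental cells rather than cells with a non-targeting construct, and the labels name neither the construct nor whether KD cells are a clone. Drug and time changed together, so that in either genotype the effect of largazole and that of 18 h in culture cannot be told apart. The replicate labels do not say that the libraries came from separate cultures, so p-values reflect only how these libraries scatter, and that scatter may be technical. In bulk RNA, fewer cells of a kind and less RNA per cell cannot be told apart.

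Largazole is a cyclic depsipeptide that inhibits class I histone deacetylases, the enzymes that remove acetyl groups from histone tails, and such inhibitors raise some genes and lower others. PRDX6, a peroxiredoxin, detoxifies hydrogen peroxide and oxidised phospholipids. Cells meet misfolded protein in the endoplasmic reticulum (ER) with the unfolded protein response, in which the transcription factors ATF6, XBP1 and ATF4 raise chaperones such as BiP, folding enzymes and factors for degradation. ATF4 is also the effector of the integrated stress response, which reacts to amino acid shortage and other stresses by slowing translation and raising genes of amino acid supply.

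Total estimated counts ranged from 13020492 to 15613216 per library over 24411 genes, of which 12517 were tested. Log2 differences between replicates had an SD of 0.359 in KD largazole, 0.207 in KD DMSO, 0.218 in parental largazole and 0.194 in parental DMSO, so that the KD largazole replicates lay farthest apart. Rn45s, the ribosomal RNA precursor, stood at 23915 and 742 CPM, the count scaled to library size, in KD largazole replicates 1 and 2. It stood at 9963 and 2549 CPM in KD DMSO, 7739 and 950 CPM in parental largazole, and 1353 and 1212 CPM in parental DMSO. Replicate 1 was thus the higher one in every group, the least so in parental DMSO, and the cause was not tested. Of 11 squamous or keratinocyte markers only Krt8, Krt18 and Itga6 exceeded 1 CPM in all libraries, while Krt5, Krt6a, Krt17, Trp63 and Cdh1 stayed under 1 CPM in all of them. Of 8 fibroblast markers 7 exceeded 1 CPM in every library. Prdx6 itself (chromosome 1, 161240112 to 161251219, minus strand, GRCm38) stood at 81.1 and 64.9 CPM in KD largazole, 86.6 and 79.2 CPM in KD DMSO, 257 and 233 CPM in parental largazole and 297 and 283 CPM in parental DMSO. All 4 KD libraries were below all 4 parental ones. Its response differed between genotypes by 0.06 on the log2 scale (95% interval -0.29 to 0.40, adjusted p = 0.976), and by -0.11 without KD largazole replicate 1 (adjusted p = 0.614).

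The response to largazole differed between genotypes past the threshold for 26 of the 12517 genes tested (0.208%), by the quasi-likelihood test of edgeR (Benjamini-Hochberg adjusted p under 0.05 over all of them). The difference is the log2 response in KD cells minus the log2 response in parental cells, so that a negative value means a smaller rise, a deeper fall, or a fall in place of a rise. It was positive for 4 genes (0.0320% of those tested) and negative for 22 (0.176%), and 13 of the 26 differed by at least 2-fold. Between DMSO at 0 h and largazole at 18 h 6029 genes changed in KD cells (48.2%) and 6205 in parental cells (49.6%). The median absolute log2 response was 0.38 in both. The responses had a Pearson correlation of 0.914 and a Spearman correlation of 0.901 across the 10183 genes that averaged 5 CPM or more, as a description across genes, which are not independent replicates. The genotypes share no library in this correlation.

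The precision of the comparison limits what could be seen. The median SE of the difference was 0.20 on the log2 scale, and for 9435 genes (75.4%) the 95% interval lay within 2-fold in either direction. Over all genes tested the median difference was -0.03, with 6905 negative and 5612 positive values. At an unadjusted p under 0.05 there were 1087 genes (8.68%), 816 negative and 271 positive. In 2883 genes (23%) the 4 KD pairings of a largazole with a DMSO replicate all lay on one side of the 4 parental pairings, and this held for all 26 genes past the threshold.

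The number of genes past the threshold depended on single libraries. It was 428 without KD largazole replicate 1 and 457 without KD largazole replicate 2, the group whose replicates lay farthest apart, and both sets held all 26 genes. It was 2 without KD DMSO replicate 1, 11 without KD DMSO replicate 2, 2 without parental largazole replicate 1, 2 without parental largazole replicate 2, 3 without parental DMSO replicate 1 and 2 without parental DMSO replicate 2. With a library left out, the lone library of its group is taken to vary as the other groups do. Hspa5 and Gm5424 passed in all 8 of these fits. Each of the other 24 genes lost its call without either parental largazole replicate, without parental DMSO replicate 2 and without KD DMSO replicate 1, and most did so without the remaining DMSO replicates too. No gene of the 26 changed direction in any fit.

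**Figure D1:**
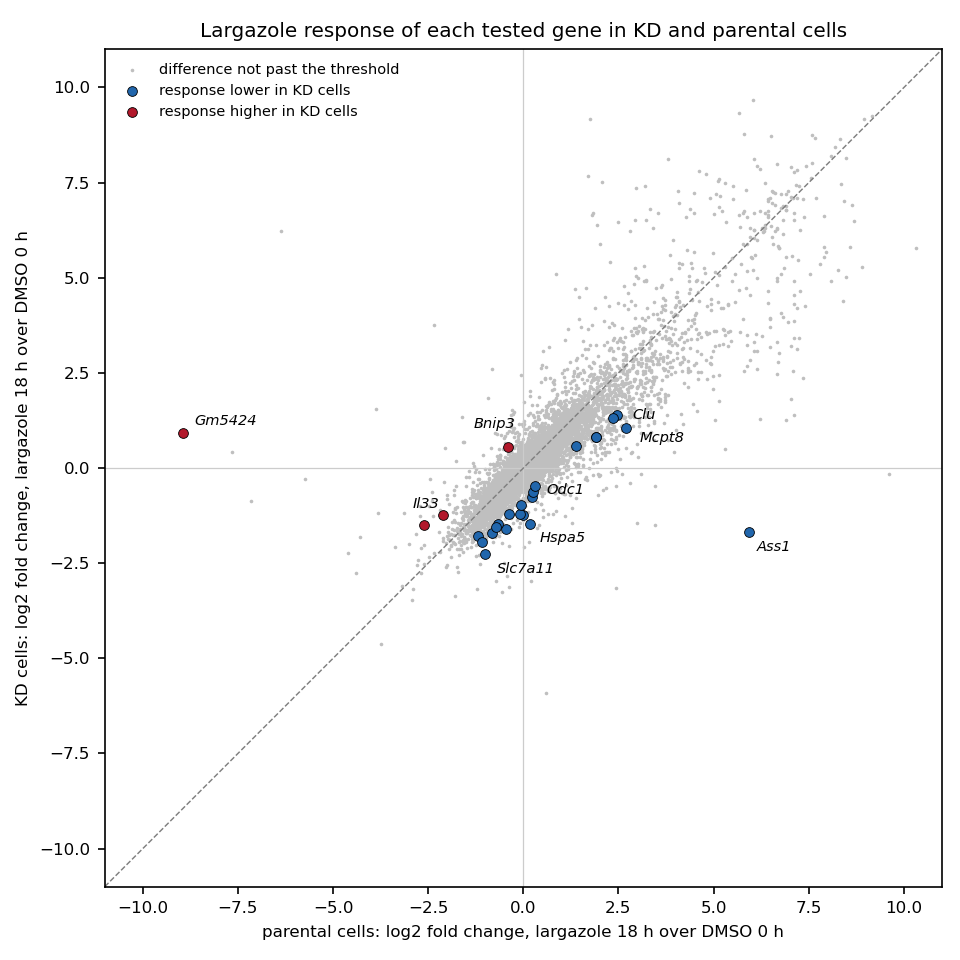
Log2 fold change of each of the 12517 tested genes with largazole, in KD cells (vertical axis) against parental cells (horizontal axis). Grey points did not pass the threshold for the difference, coloured points did, and the dashed line marks equal responses. The 22 genes with a lower response in KD cells lie below the line and the 4 with a higher response above it. Ass1 and Gm5424 lie far from the other coloured points.

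Genes of ER protein folding held more calls than any other of the 32 lists examined. Of the 28 tested genes on a list of 29 ER chaperones and unfolded protein response genes, 7 had a lower response in KD cells (0.176% of all genes tested did) and none a higher one, and 27 of the 28 differences were negative. Without either KD largazole replicate more members were lower, as were far more of all genes tested. Without any of the other libraries fewer members were lower, and Hspa5 always remained. The median difference of the list was -0.46, against -0.03 over all genes tested. In KD cells 20 of the 28 fell with largazole (23.2% of all genes fell) and none rose (25% of all genes rose). In parental cells 5 fell (22.7%) and 7 rose (26.9%). The responses share their libraries with the difference and are given beside it as a description. Under largazole 21 of the 28 were lower in KD than in parental cells and none higher, where 18.3% of all genes differed, 9.81% lower and 8.51% higher. In DMSO 16 of the 28 were lower and none higher, where 11% of all genes differed, 4.02% lower and 7.01% higher.

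Hspa5, which encodes BiP, the main HSP70 chaperone of the ER lumen and a brake on the unfolded protein response sensors, differed most among them (chromosome 2, 34771970 to 34777547, plus strand). It stood at 451 and 451 CPM in KD largazole and 1223 and 1297 CPM in KD DMSO, against 2618 and 2657 CPM in parental largazole and 2351 and 2316 CPM in parental DMSO. No group overlapped another, and the KD largazole libraries were by far the lowest. The response was -1.48 ± 0.07 in KD cells (SE, adjusted p = 4.55e-07) and 0.18 ± 0.07 in parental cells (adjusted p = 0.0554). The difference of -1.66 ± 0.10 passed (adjusted p = 0.000144) and lay between -1.70 and -1.60 in 19 alternative settings, in all of which it passed. KD cells held less Hspa5 than parental cells already in DMSO (-0.89, adjusted p = 5.62e-05) and less again under largazole (-2.55, adjusted p = 1.17e-07).

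Promoters of 6 of the 7 called ER genes, all but Hyou1, are shown because a known element of ER stress genes, ERSE, can be looked for in their letters. ERSE is read here as CCAAT and CCACG with 9 bases of any kind between them, and its variant ERSE-II as ATTGG and CCACG with 1 such base between them, each on both strands, in windows from 250 bases before to 50 bases after the annotated start, from RefSeq on GRCm38.p6. ERSE was found in 0.119% of 32851 windows and in 0.158% of the 9523 tested genes with a window, and ERSE-II in 0.0365% and 0.0840%. Among the 22 tested ER genes with a window 8 held ERSE and 2 held ERSE-II. The windows are Hspa5 at chr2:34771840-34772139 (plus strand), Herpud1 at chr8:94386179-94386478 (plus strand), Creld2 at chr15:88819396-88819695 (plus strand), Pdia4 at chr6:47813463-47813762 (minus strand), Hsp90b1 at chr10:86705395-86705694 (minus strand) and Calr at chr8:84846882-84847181 (minus strand). Capitals mark each match to ERSE, or to ERSE-II in Herpud1.
Hspa5: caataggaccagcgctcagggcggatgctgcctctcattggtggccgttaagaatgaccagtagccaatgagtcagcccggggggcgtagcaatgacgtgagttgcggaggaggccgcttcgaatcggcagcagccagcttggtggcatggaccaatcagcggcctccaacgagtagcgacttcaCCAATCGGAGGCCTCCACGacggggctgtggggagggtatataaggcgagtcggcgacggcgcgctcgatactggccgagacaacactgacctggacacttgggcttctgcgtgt
Herpud1: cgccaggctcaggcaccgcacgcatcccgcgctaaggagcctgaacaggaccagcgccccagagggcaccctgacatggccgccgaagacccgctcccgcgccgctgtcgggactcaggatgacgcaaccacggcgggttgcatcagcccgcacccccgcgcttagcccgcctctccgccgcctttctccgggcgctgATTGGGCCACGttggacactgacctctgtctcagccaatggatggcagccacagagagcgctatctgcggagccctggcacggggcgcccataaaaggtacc
Creld2: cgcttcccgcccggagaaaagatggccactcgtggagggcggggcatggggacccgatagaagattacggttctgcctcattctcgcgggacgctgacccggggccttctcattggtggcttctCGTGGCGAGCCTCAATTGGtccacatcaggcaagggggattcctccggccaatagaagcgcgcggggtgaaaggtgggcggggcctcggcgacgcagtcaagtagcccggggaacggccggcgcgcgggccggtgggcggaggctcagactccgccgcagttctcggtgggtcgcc
Pdia4: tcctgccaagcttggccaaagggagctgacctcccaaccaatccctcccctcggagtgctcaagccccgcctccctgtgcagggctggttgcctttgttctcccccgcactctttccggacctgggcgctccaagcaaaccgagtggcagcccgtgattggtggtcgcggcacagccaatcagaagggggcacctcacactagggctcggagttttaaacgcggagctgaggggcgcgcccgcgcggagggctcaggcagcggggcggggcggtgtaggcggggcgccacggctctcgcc
Hsp90b1: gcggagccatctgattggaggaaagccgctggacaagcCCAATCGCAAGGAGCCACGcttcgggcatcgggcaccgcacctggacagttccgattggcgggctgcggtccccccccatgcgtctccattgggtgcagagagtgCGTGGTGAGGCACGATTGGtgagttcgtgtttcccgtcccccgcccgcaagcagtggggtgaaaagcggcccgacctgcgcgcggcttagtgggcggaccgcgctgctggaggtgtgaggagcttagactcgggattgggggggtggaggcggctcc
Calr: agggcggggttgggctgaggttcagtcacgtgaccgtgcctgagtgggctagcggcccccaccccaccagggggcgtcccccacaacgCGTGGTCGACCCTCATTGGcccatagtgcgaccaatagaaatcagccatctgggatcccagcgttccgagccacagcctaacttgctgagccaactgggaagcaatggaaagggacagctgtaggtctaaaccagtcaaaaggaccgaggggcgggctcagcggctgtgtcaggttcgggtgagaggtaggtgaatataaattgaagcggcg
The first match begins 65 bases before the start in Hspa5, 52 in Herpud1, 126 in Creld2, 212 in Hsp90b1 and 162 in Calr, and Hsp90b1 holds one on each strand. In Creld2 and Calr the match is on the strand opposite to the gene, where it reads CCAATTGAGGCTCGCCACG and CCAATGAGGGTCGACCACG. The window of Pdia4 holds neither string of letters. A match is a string of letters, not a measured site.

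Hsp90b1 encodes the ER chaperone GRP94 (chromosome 10, 86690209 to 86705509, minus strand). Its exons overlap 1810014B01Rik on the opposite strand and Gm15344 and Gm25745 on the same strand. It stood at 1114 and 1087 CPM in KD largazole and 2131 and 2191 CPM in KD DMSO, against 3415 and 3538 CPM in parental largazole and 3710 and 3564 CPM in parental DMSO. The KD largazole libraries were lowest and the parental groups lay close together. The response was -0.97 in KD cells and -0.07 in parental cells (adjusted p = 0.469), a difference of -0.91 ± 0.10 (adjusted p = 0.00605). Calr encodes calreticulin, a calcium-binding chaperone of glycoproteins (chromosome 8, 84841850 to 84846934, minus strand). Its levels were 1099 and 941 CPM in KD largazole and 1443 and 1393 CPM in KD DMSO, against 2734 and 2604 CPM in parental largazole and 2223 and 2071 CPM in parental DMSO. Calr thus fell in KD cells (-0.47, adjusted p = 0.00158) and rose in parental cells (0.31, adjusted p = 0.0139), and the difference was -0.79 ± 0.12 (adjusted p = 0.0439). Calr did not pass with upper-quartile scaling (adjusted p = 0.0540) or the stricter filter on low counts (adjusted p = 0.0518).

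Pdia4, a protein disulfide isomerase that forms and rearranges disulfide bonds (chromosome 6, 47796141 to 47813430, minus strand), also moved in opposite directions. Its exons overlap Mir704 on the same strand. It stood at 212 and 235 CPM in KD largazole and 377 and 378 CPM in KD DMSO, against 877 and 893 CPM in parental largazole and 747 and 759 CPM in parental DMSO. It fell in KD cells (-0.76, adjusted p = 2.79e-05) and rose in parental cells (0.23, adjusted p = 0.0233), a difference of -0.99 ± 0.10 (adjusted p = 0.00541). Hyou1, an HSP110-type cochaperone of BiP (chromosome 9, 44379490 to 44392369, plus strand), fell in both genotypes, by 1.22 in KD cells and by 0.37 in parental cells on the log2 scale. Its levels were 104 and 107 CPM in KD largazole and 245 and 247 CPM in KD DMSO, against 323 and 323 CPM in parental largazole and 423 and 412 CPM in parental DMSO. All 4 groups were apart, and the difference was -0.85 ± 0.10 (adjusted p = 0.00667).

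Creld2, a small ER protein raised by ER stress (chromosome 15, 88819646 to 88826683, plus strand), stood at 40.0 and 32.2 CPM in KD largazole and 86.6 and 79.8 CPM in KD DMSO, against 172 and 169 CPM in parental largazole and 185 and 175 CPM in parental DMSO. Herpud1, a component of the complex that retrotranslocates misfolded proteins for degradation (chromosome 8, 94386438 to 94395377, plus strand), stood at 39.7 and 35.3 CPM in KD largazole and 91.0 and 83.5 CPM in KD DMSO, against 127 and 125 CPM in parental largazole and 129 and 124 CPM in parental DMSO. Both fell in KD cells (-1.21 for Creld2 and -1.22 for Herpud1), whereas the parental responses were -0.08 (adjusted p = 0.545) and -0.01 (adjusted p = 0.961). The differences were -1.13 ± 0.15 for Creld2 (adjusted p = 0.0168) and -1.21 ± 0.13 for Herpud1 (adjusted p = 0.00541). Among the 21 tested ER genes that did not pass, Dnajc3, the BiP cochaperone p58IPK, came nearest with -0.69 (adjusted p = 0.0531). Manf had a difference of -0.89 (adjusted p = 0.180), Dnajb9 of -0.75 (adjusted p = 0.133), Xbp1 of -0.29 (adjusted p = 0.531), Atf6 of -0.23 (adjusted p = 0.783) and Ppib, the 1 positive member, of 0.06 (adjusted p = 0.981). These members were picked after their values were seen.

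**Figure D2:**
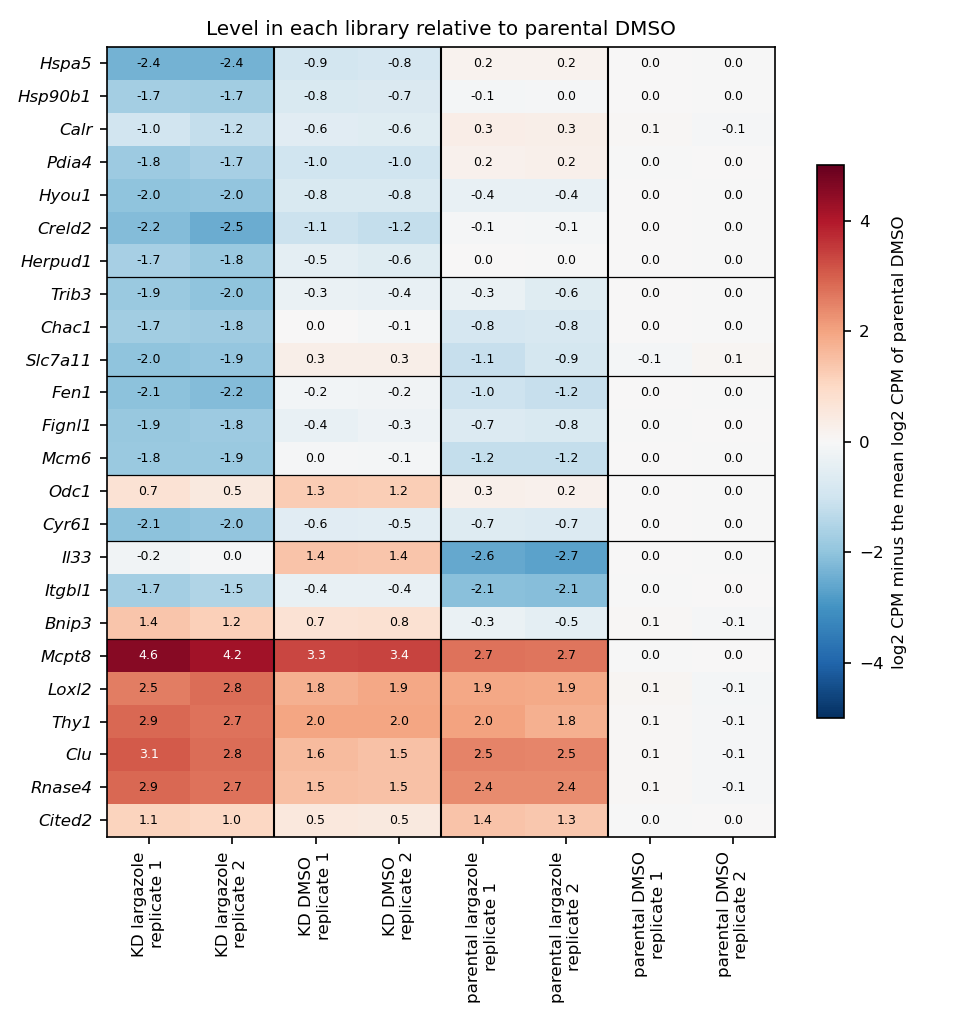
Level of 24 called genes in each library (columns, KD largazole, KD DMSO, parental largazole and parental DMSO from left to right) as log2 CPM minus the mean log2 CPM of parental DMSO. Ass1 and Gm5424 are left out because counts of 0 occur, and horizontal lines divide ER genes, stress and cystine genes, replication genes, Odc1 with Cyr61, genes with positive differences and genes raised in both genotypes. The upper rows are lowest in the KD largazole libraries, and the lowest rows are higher under largazole than under DMSO in both genotypes.

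Of 30 tested genes of the integrated stress response 23 fell with largazole in KD cells and 20 in parental cells, and 3 fell further in KD cells than in parental cells past the threshold (0.176% of all genes had a lower response). Of the 30, 25 had a negative difference, with a median of -0.29 against -0.03 over all genes tested. Over all genes tested 23.2% fell in KD cells and 22.7% in parental cells. On the list 2 rose in KD cells (25% of all genes) and 3 in parental cells (26.9%). The count of called members was 1 with no filter on low counts and 5 with DESeq2, which called 62 of all 12517 genes lower. The count on the list rose without either KD largazole replicate, as did that over all genes tested. No member passed without any of the other 6 libraries.

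Trib3, a pseudokinase induced by ATF4 and CHOP (chromosome 2, 152337422 to 152344032, minus strand), stood at 19.8 and 17.9 CPM in KD largazole and 57.3 and 56.4 CPM in KD DMSO, against 57.9 and 47.7 CPM in parental largazole and 73.6 and 70.6 CPM in parental DMSO. The KD largazole libraries lay below all others, whereas KD DMSO and parental largazole overlapped. The response was -1.59 in KD cells and -0.45 in parental cells, a difference of -1.14 ± 0.16 (adjusted p = 0.0241). Chac1, which breaks down glutathione (chromosome 2, 119351229 to 119354381, plus strand), had 21.0 and 20.2 CPM in KD largazole and 69.9 and 64.98 CPM in KD DMSO, against 39.0 and 39.7 CPM in parental largazole and 70.1 and 68.5 CPM in parental DMSO. Its level did not differ past the threshold between genotypes in DMSO (-0.04, adjusted p = 0.844), and the responses of -1.71 in KD cells and -0.82 in parental cells gave a difference of -0.89 ± 0.13 (adjusted p = 0.0290, and adjusted p = 0.0613 with no filter on low counts).

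Slc7a11 encodes the cystine-importing subunit of the antiporter system xc-, which supplies cysteine for glutathione (chromosome 3, 49892526 to 50443614, minus strand). It stood at 7.64 and 8.02 CPM in KD largazole and 37.1 and 37.7 CPM in KD DMSO, against 13.8 and 16.7 CPM in parental largazole and 28.5 and 32.4 CPM in parental DMSO. KD libraries thus held the highest levels in DMSO, but there the genotypes did not differ past the threshold (0.30, adjusted p = 0.171). Under largazole KD libraries held the lowest levels (-0.96 against parental cells, adjusted p = 0.00223). The response was -2.25 ± 0.14 in KD cells and -1.0 ± 0.13 in parental cells, a difference of -1.26 ± 0.20 (adjusted p = 0.0402). It did not pass with library totals only (adjusted p = 0.0574), with no filter on low counts (adjusted p = 0.0731) or with limma-voom (adjusted p = 0.0559). Slc7a11 is also the 1 called gene among 26 tested targets of NRF2, the transcription factor of the antioxidant response, and with Chac1 it makes up the 2 called among 34 tested genes of ferroptosis control and iron, with medians of -0.05 and -0.14 (0.176% of all genes had a lower response). Both counts rose without either KD largazole replicate, as did the count over all genes tested. Without KD largazole replicate 2 the medians turned to 0.04 for NRF2 targets and 0.03 for ferroptosis. Without any of the other 6 libraries no member of either list passed. Gpx4, the selenoenzyme that reduces phospholipid hydroperoxides and so guards against ferroptosis, had a difference of 0.15 (interval -0.29 to 0.59, adjusted p = 0.932), of -0.14 without KD largazole replicate 1 (adjusted p = 0.454) and of 0.40 without KD largazole replicate 2, which passed (adjusted p = 0.0319).

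Neither Atf4 nor Ddit3, transcription factors of the pathway, passed over all 8 libraries. Atf4 had 349 and 283 CPM in KD largazole and 693 and 634 CPM in KD DMSO, against 436 and 409 CPM in parental largazole and 747 and 712 CPM in parental DMSO. It fell in both genotypes, and the difference was -0.28 (interval -0.60 to 0.04, adjusted p = 0.643), or -0.44 without KD largazole replicate 1, which passed (adjusted p = 0.0188). Ddit3, which encodes CHOP and whose exons overlap Mars on the opposite strand, had 18.71 and 12.475 CPM in KD largazole and 33.3 and 28.9 CPM in KD DMSO, against 51.8 and 46.7 CPM in parental largazole and 46.3 and 48.7 CPM in parental DMSO. Its difference of -1.06 (interval -1.57 to -0.54) did not pass (adjusted p = 0.144), but did with DESeq2 (adjusted p = 0.00960) and without either KD largazole replicate (adjusted p = 0.000460 without replicate 1 and 0.0203 without replicate 2). Slc7a5, the large neutral amino acid transporter, had a difference of -0.59 (adjusted p = 0.0610), and Ddit4, an inhibitor of mTORC1 signalling, of 0.61 (adjusted p = 0.273), both picked after their values were seen. Of 20 tested cytosolic aminoacyl-tRNA synthetase genes none passed with edgeR. An unadjusted p under 0.05 was found for 5 (8.68% of all genes), and all 20 intervals lay within 2-fold (75.4%).

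The composite C/EBP-ATF element, read as TGATGNAA on both strands, was found in 3.97% of all windows and in 2.84% of tested genes with a window. It was found in 10 of 26 integrated stress response genes with a window and in 5 of 12 synthetase genes. Among the called genes it occurs in the windows of Slc7a11, with 2 matches, and of Trib3, Chac1, Herpud1 and Fen1, with 1 each. So the list with 3 called genes and the synthetases with none both hold these letters more often than tested genes at large, as a count with no test.

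Genes of DNA replication fell with largazole for the most part in both genotypes, and 1 of the differences between genotypes passed. Of the 40 genes tested 39 fell in KD cells (23.2% of all genes) and 35 in parental cells (22.7%), and 39 of the 40 differences were negative, with a median of -0.41. At an unadjusted p under 0.05 there were 24 of them (8.68% of all genes), and 1, Mcm6, passed after adjustment with a lower response (0.176%). Mcm6 encodes a subunit of the replicative helicase (chromosome 1, 128331590 to 128359664, minus strand). It stood at 82.2 and 81.1 CPM in KD largazole and 286 and 280 CPM in KD DMSO, against 130 and 130 CPM in parental largazole and 299 and 292 CPM in parental DMSO. The DMSO groups lay close together and the largazole groups apart, and the responses of -1.79 in KD cells and -1.19 in parental cells differed by -0.61 ± 0.10 (adjusted p = 0.0493). The count of called members was 9 with DESeq2 and 0 with limma-voom, with no filter on low counts, with RLE or upper-quartile scaling, with library totals only and with Rn45s removed. DESeq2 called 62 of all 12517 genes lower. The count on the list rose without either KD largazole replicate, as did that over all genes tested. No member passed without any of the other 6 libraries. Adjusted p of Mcm6 ranged up to 0.0971 in those scaling, filter and tool settings without a call. Ccne1 and Ccne2, the E-type cyclins of S phase entry, had differences of -1.27 (adjusted p = 0.0570) and -1.01 (adjusted p = 0.0800), and Orc1, of the origin recognition complex, of -1.17 (adjusted p = 0.0658), all 3 picked after their values were seen.

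Fen1 and Fignl1, which are on no list, also act on DNA. Fen1, the flap endonuclease that trims Okazaki fragments (chromosome 19, 10199132 to 10204169, minus strand, with exons that overlap Tmem258 on the opposite strand), stood at 25.6 and 23.9 CPM in KD largazole and 95.6 and 94.6 CPM in KD DMSO, against 52.2 and 47.8 CPM in parental largazole and 107 and 105 CPM in parental DMSO. Its response was -1.94 in KD cells and -1.09 in parental cells, a difference of -0.85 ± 0.12 (adjusted p = 0.0290, and adjusted p = 0.0613 with no filter on low counts). Fignl1, an AAA ATPase that acts in homologous recombination (chromosome 11, 11787431 to 11808962, minus strand), stood at 20.8 and 22.1 CPM in KD largazole and 61.1 and 65.4 CPM in KD DMSO, against 48.8 and 46.1 CPM in parental largazole and 77.1 and 79.0 CPM in parental DMSO. Its difference was -0.84 ± 0.13 (adjusted p = 0.0402), and it did not pass with library totals only (adjusted p = 0.0580), with no filter on low counts (adjusted p = 0.0812) or with limma-voom (adjusted p = 0.0532). Fen1, Fignl1, Calr and Cited2 fall outside the rule for named genes and are described because all called genes are. Of 22 tested genes of homologous recombination and the Fanconi pathway none passed with edgeR, and 11 had an unadjusted p under 0.05 (8.68% of all genes). Of the 22 differences 19 were negative, with a median of -0.38, against -0.03 over all genes tested. Some genes of the recombination list had a lower response past the threshold without either KD largazole replicate, where far more of all genes tested did too. The 32 genes of the mitotic list all fell in both genotypes (23.2% of all genes in KD cells and 22.7% in parental cells). Of their differences 28 were negative (6905 of 12517 over all genes), with a median of -0.14. All 32 intervals lay within 2-fold (75.4% of all genes).

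Odc1 and Cyr61 completed the genes with a deeper response in KD cells. Odc1 encodes ornithine decarboxylase, the rate-limiting enzyme of polyamine synthesis (chromosome 12, 17544794 to 17551505, plus strand). It stood at 1459 and 1260 CPM in KD largazole and 2150 and 2092 CPM in KD DMSO, against 1061 and 1041 CPM in parental largazole and 887 and 886 CPM in parental DMSO. All 4 KD libraries lay above all 4 parental ones, and the genotypes lay closer under largazole than in DMSO. Odc1 fell in KD cells (-0.64, adjusted p = 0.000146) and rose in parental cells (0.25, adjusted p = 0.0300), a difference of -0.89 ± 0.12 (adjusted p = 0.0168). Cyr61, annotated as Ccn1, encodes a matricellular protein and is a target of the coactivator YAP (chromosome 3, 145646976 to 145649981, minus strand). It stood at 29.1 and 31.3 CPM in KD largazole and 81.3 and 85.0 CPM in KD DMSO, against 77.2 and 76.4 CPM in parental largazole and 123 and 121 CPM in parental DMSO. Its response was -1.46 in KD cells and -0.67 in parental cells, a difference of -0.79 ± 0.12 (adjusted p = 0.0290), which did not pass with library totals only (adjusted p = 0.0557) or with no filter on low counts (adjusted p = 0.0727). Cyr61 was the 1 called gene of 21 tested YAP and TEAD targets (0.176% of all genes had a lower response), whose median difference was -0.19.

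**Figure D3:**
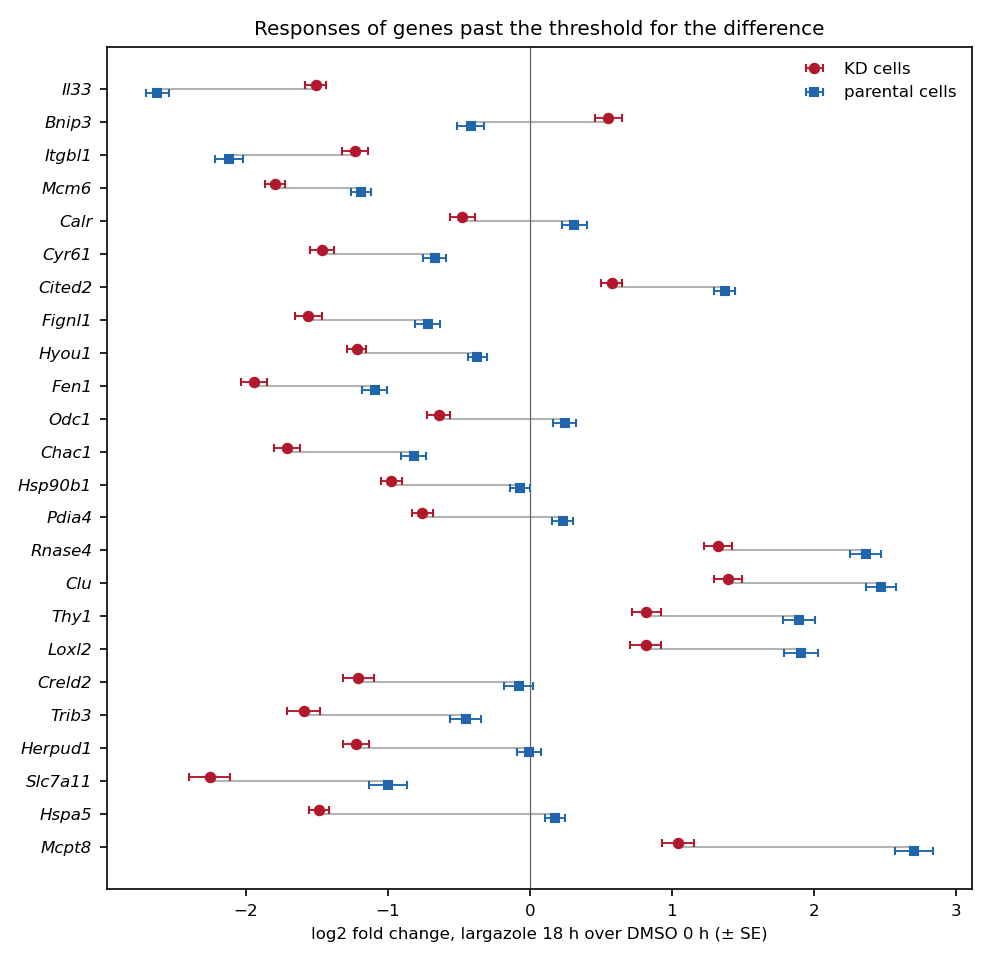
Log2 fold change with largazole, with its SE, in KD cells (circles) and parental cells (squares) for 24 genes whose responses differed past the threshold, ordered by the difference from positive at the top to negative at the bottom. Ass1 and Gm5424 are left out because counts of 0 occur. Circles lie right of squares for Il33, Bnip3 and Itgbl1 and left of them for the other 21 genes.

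A group of 6 genes rose with largazole in both genotypes, but by a smaller factor in KD cells. Mcpt8, a serine protease known from mouse basophils (chromosome 14, 56082166 to 56085273, minus strand), stood at 223.4 and 174 CPM in KD largazole and 95.3 and 97.3 CPM in KD DMSO, against 62.7 and 60.5 CPM in parental largazole and 9.32 and 9.58 CPM in parental DMSO. All 4 groups were apart, and KD cells with DMSO already exceeded parental cells with largazole. The response was 1.04 ± 0.11 in KD cells and 2.70 ± 0.13 in parental cells, a difference of -1.66 ± 0.17 (adjusted p = 0.00541). Leukocyte markers were near 0: Ptprc did not exceed 0.857 CPM, Adgre1 and Cd3e had no counts in any library, and of 7 such markers only Cd68, also a gene of lysosomes, exceeded 1 CPM in all libraries. Cd68 averaged 44.3 CPM in KD largazole, 4.38 CPM in KD DMSO, 61.8 CPM in parental largazole and 4.15 CPM in parental DMSO.

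Loxl2 encodes a lysyl oxidase that crosslinks collagen (chromosome 14, 69609068 to 69695834, plus strand). Its exons overlap Gm27177 on the opposite strand and Mir6950 on the same strand. It stood at 133 and 160 CPM in KD largazole and 78.4 and 88.3 CPM in KD DMSO, against 86.8 and 85.2 CPM in parental largazole and 24.2 and 21.7 CPM in parental DMSO. Thy1, a surface glycoprotein that marks fibroblasts among other cells (chromosome 9, 44043384 to 44048579, plus strand), stood at 122 and 109 CPM in KD largazole and 65.3 and 65.6 CPM in KD DMSO, against 66.7 and 58.0 CPM in parental largazole and 17.6 and 15.9 CPM in parental DMSO. In both genes KD DMSO overlapped parental largazole. The differences were -1.09 ± 0.16 for Loxl2 (adjusted p = 0.0290) and -1.08 ± 0.15 for Thy1 (adjusted p = 0.0241). Loxl2 did not pass with library totals only (adjusted p = 0.0574) or with no filter on low counts (adjusted p = 0.0727). They were the 2 called among 30 tested mesenchymal and matrix genes (0.176% of all genes had a lower response), whose median was -0.06. The count rose without either KD largazole replicate, as did that over all genes tested, and the median was -0.22 without KD largazole replicate 2. No member passed without any of the other 6 libraries. Of the 8 fibroblast markers Thy1 alone was called.

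Clu encodes clusterin, a secreted chaperone (chromosome 14, 65968483 to 65981547, plus strand). It stood at 449 and 377 CPM in KD largazole and 163 and 151 CPM in KD DMSO, against 305 and 298 CPM in parental largazole and 56.7 and 51.7 CPM in parental DMSO. The largazole groups lay above the DMSO groups, and KD above parental within each. The response was 1.40 in KD cells and 2.47 in parental cells, a difference of -1.08 ± 0.14 (adjusted p = 0.0168). Rnase4, a secreted ribonuclease whose exons overlap Ang on the same strand, so that reads of the 2 genes may not be told apart (chromosome 14, 51091077 to 51106151, plus strand), stood at 84.1 and 74.8 CPM in KD largazole and 32.1 and 31.2 CPM in KD DMSO, against 59.0 and 58.6 CPM in parental largazole and 11.8 and 11 CPM in parental DMSO. Its difference was -1.04 ± 0.15 (adjusted p = 0.0241). Cited2, a coregulator that binds CBP and p300 and limits HIF-1 (chromosome 10, 17723218 to 17725674, plus strand), stood at 289 and 275 CPM in KD largazole and 194 and 185 CPM in KD DMSO, against 355 and 335 CPM in parental largazole and 133 and 134 CPM in parental DMSO. It rose by 0.58 in KD cells and by 1.37 in parental cells on the log2 scale, a difference of -0.80 ± 0.10 (adjusted p = 0.0168), and was the 1 gene of the 6 whose KD largazole libraries lay below the parental largazole ones.

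The log2 difference compares factors, and in CPM the same genes read otherwise. Loxl2 gained 63.4 ± 14.5 CPM in KD cells and 63.1 ± 1.52 CPM in parental cells, with SE from 2 libraries a group. Thy1 gained 50.1 ± 6.62 CPM in KD cells and 45.6 ± 4.42 CPM in parental cells. The gain of Clu was 256 ± 36.4 CPM in KD cells and 247 ± 4.29 CPM in parental cells, and that of Rnase4 was 47.8 ± 4.68 CPM in KD cells and 47.4 ± 0.459 CPM in parental cells. In these 4 the gains in CPM lay within 2 SE of each other, while the level in DMSO was higher in KD cells past the threshold, as it was for 7.01% of all genes tested. Mcpt8 gained more CPM in KD cells (102 ± 24.8) than in parental cells (52.1 ± 1.08), a gap of 50.2 ± 24.8 CPM, or little more than 2 SE. Il33, described next, lost more (-635 ± 15.2 CPM in KD cells against -309 ± 4.02 CPM in parental cells). For these 6 of the 26 genes the difference had the opposite sign in CPM, though for the 4 within 2 SE that sign was not settled. Cited2 gained less on both scales, 93.0 ± 8.52 CPM in KD cells and 212 ± 10.3 CPM in parental cells, and the 7 called ER genes kept a negative difference on both.

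The response was higher in KD cells for Il33, Itgbl1, Bnip3 and Gm5424, which are 0.0320% of all genes tested. Il33, an alarmin of the interleukin 1 family kept in the nucleus and released on damage (chromosome 19, 29925114 to 29960718, plus strand), stood at 330 and 360 CPM in KD largazole and 984 and 977 CPM in KD DMSO, against 62.0 and 58.2 CPM in parental largazole and 373 and 366 CPM in parental DMSO. KD largazole libraries thus held about the level of parental DMSO libraries. It fell in both genotypes, with responses of -1.51 ± 0.07 in KD cells and -2.62 ± 0.08 in parental cells, a difference of 1.11 ± 0.11 (adjusted p = 0.00414). It was the 1 called gene of 23 tested NF-kB targets and cytokines, whose median was -0.15. Without either KD largazole replicate some members had a lower response past the threshold, as did far more of all genes tested. Itgbl1, a secreted protein with integrin beta-like repeats (chromosome 14, 123659971 to 123975618, plus strand), stood at 34.5 and 39.6 CPM in KD largazole and 87.2 and 86.9 CPM in KD DMSO, against 26.5 and 25.6 CPM in parental largazole and 111 and 115 CPM in parental DMSO. KD cells were the lower ones in DMSO and the higher ones under largazole, and the difference was 0.89 ± 0.13 (adjusted p = 0.0316). It did not pass with library totals only (adjusted p = 0.0640) or with no filter on low counts (adjusted p = 0.0645).

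Bnip3, a mitochondrial protein of the BCL2 family that serves as a mitophagy receptor and is raised in hypoxia (chromosome 7, 138890836 to 138909519, minus strand, with exons that overlap Gm45507 on the opposite strand), moved in opposite directions. It stood at 248 and 215 CPM in KD largazole and 156 and 159 CPM in KD DMSO, against 74.1 and 66.4 CPM in parental largazole and 97.4 and 90.1 CPM in parental DMSO. It rose in KD cells (0.55, adjusted p = 0.000940) and fell in parental cells (-0.42, adjusted p = 0.00546), a difference of 0.97 ± 0.14 (adjusted p = 0.0241). On the list of glycolysis and hypoxia genes Bnip3 was the 1 of 34 tested to pass (0.0320% of all genes had a higher response). Of the 34 differences 26 were positive (5612 of 12517 over all genes), with a median of 0.11 (0.21 without KD largazole replicate 2). Eno2, a neuronal enolase isoform, had a difference of 0.86 (adjusted p = 0.0508) and Vegfa, the angiogenic growth factor, of 0.60 (adjusted p = 0.0951). Pdk1, a kinase of pyruvate dehydrogenase, had a difference of 0.55 (adjusted p = 0.140). Eno2, Vegfa and Pdk1 were picked after their values were seen. Of the core glycolytic enzymes Gapdh had a difference of 0.06 (adjusted p = 0.978), Pgk1 of 0.04 (adjusted p = 0.982) and Ldha of 0.08 (adjusted p = 0.956). With RLE scaling and with the older quasi-likelihood method 2 members passed, and with DESeq2 4. DESeq2 called 21 of all 12517 genes higher and 62 lower. The count on the list rose without either KD largazole replicate, as did that over all genes tested.

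Among the called genes Ass1 and Gm5424 had the largest differences, in opposite directions, and Gm5424 is a near copy of a large part of Ass1. Over all genes tested the fitted differences ran from -9.75 to 12.6, so that genes that did not pass reached larger values. Ass1 encodes argininosuccinate synthase, which makes the precursor of arginine (chromosome 2, 31470207 to 31520672, plus strand). Gm5424 is annotated as a processed pseudogene (chromosome 10, 62071123 to 62072362, plus strand). The transcript of Gm5424 has 1240 bases, and 1234 of them (99.5%) are identical to an Ass1 transcript of 1696 bases, with 6 mismatches and no gap, and the longest identical run has 398 bases. Within the aligned part the counting of reads between the genes rests on such mismatches. A stretch of 60 coding bases is shown because it holds 2 of the 6, in capitals. It spans bases 572 to 631 of the Ass1 transcript, whose coding part runs over bases 203 to 1438, and bases 370 to 429 of the Gm5424 transcript, both from GENCODE M21 on GRCm38.
Ass1: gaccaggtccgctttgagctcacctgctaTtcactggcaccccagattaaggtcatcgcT
Gm5424: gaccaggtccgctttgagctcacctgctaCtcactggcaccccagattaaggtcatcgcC
Reads that lie within the 1240 shared bases and cover none of the 6 positions cannot be told apart. The rest of the Ass1 transcript has no counterpart in that of Gm5424. The authors' counting of reads that match both genes is not given in the sources used here.

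Ass1 had 9 and 58 counts in KD largazole and 127 and 94 in KD DMSO, against 328 and 333 in parental largazole and 10 and 0 in parental DMSO, which is 0.701 and 3.91 CPM in KD largazole, 8.36 and 6.93 CPM in KD DMSO, 22.3 and 21.95 CPM in parental largazole and 0.739 and 0 CPM in parental DMSO. Gm5424 had 341 and 410 counts in KD largazole and 214 and 197 in KD DMSO, against 0 and 0 in parental largazole and 57 and 64 in parental DMSO. The gene that held the counts thus changed between groups, and in parental largazole all of them were on Ass1. Each gene alone passed, Ass1 with a difference of -7.61 ± 0.83 (adjusted p = 0.00605) and Gm5424 with adjusted p = 0.000480. Without parental DMSO replicate 1, which leaves parental DMSO at 0 counts, the fitted difference of Ass1 was -12.98, and without parental DMSO replicate 2 it was -6.54 and did not pass (adjusted p = 0.0883). Fitted folds depend on the prior count where libraries are at 0: against a floor of 3 counts per library, or 0.201 CPM, Gm5424 was at least 21.2-fold lower in parental largazole than in parental DMSO and at least 135-fold higher in KD largazole than in parental largazole. The floor covers counting error only, and not how reads were assigned between the 2 genes.

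Summed over both genes the picture was simpler. The sum stood at 27.3 and 31.6 CPM in KD largazole and 22.5 and 21.4 CPM in KD DMSO, against 22.3 and 21.95 CPM in parental largazole and 4.95 and 4.32 CPM in parental DMSO. Parental DMSO alone was low, and the other groups lay between 21.4 and 31.6 CPM. The summed response was 0.42 ± 0.12 in KD cells (adjusted p = 0.0171) and 2.26 ± 0.15 in parental cells (adjusted p = 2.45e-06), a difference of -1.83 ± 0.20 (adjusted p = 0.00662). This sum was chosen after seeing the data, and with it 24 genes passed in place of 26. Gm5424 held 97.4% and 87.6% of the sum in KD largazole and 62.8% and 67.7% in KD DMSO, against 0% and 0% in parental largazole and 85.1% and 100% in parental DMSO. Other genes of arginine and polyamine synthesis did not pass, except Odc1, and Asl, the next enzyme after Ass1, had a difference of -0.01 (interval -0.36 to 0.33).

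**Figure D4:**
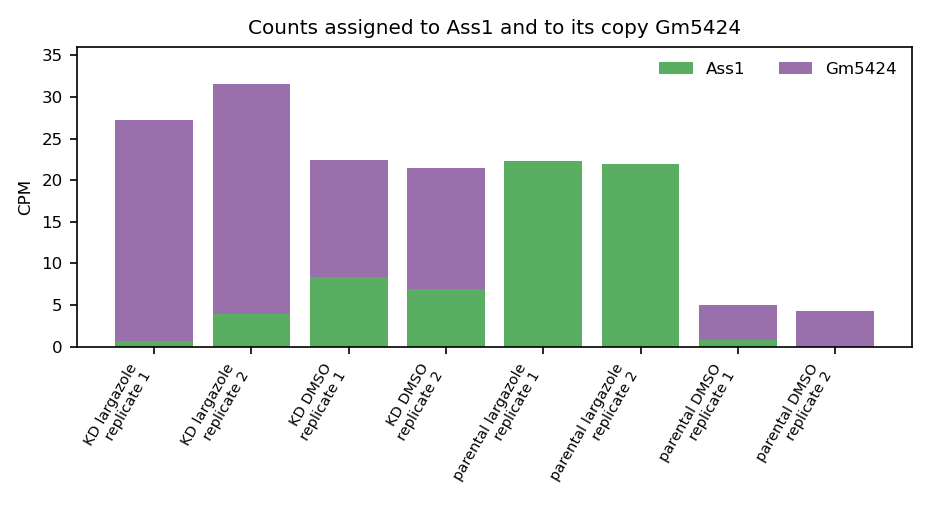
CPM assigned to Ass1 and to its copy Gm5424, stacked, in each of the 8 libraries, with KD libraries on the left. The stack is low only in parental DMSO, at 4.95 and 4.32 CPM, and its split between the genes differs between groups.

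Interferon-stimulated genes, the antiviral genes raised by interferon signalling, had the most negative median of the lists examined but no member past the threshold. Of 37 tested 34 differences were negative, with a median of -0.87, against -0.03 over all genes tested. Of the 37, 15 had an unadjusted p under 0.05 (8.68% of all genes), while only 3 intervals lay within 2-fold (75.4%). The median was -0.47 without KD DMSO replicate 1 and -1.22 without KD DMSO replicate 2. In KD cells 4 rose (25% of all genes did) and 6 fell (23.2%) with largazole. In parental cells 13 rose (26.9%) and none fell (22.7%). KD cells held far more of these transcripts than parental cells in both conditions. The median log2 differences were 2.13 under largazole and 2.97 in DMSO, against -0.0031 and 0 over all genes tested. Irf7, a transcription factor of the interferon response, stood at 37.6 and 30.01 CPM in KD largazole and 68.8 and 28.4 CPM in KD DMSO, against 6.402 and 7.38 CPM in parental largazole and 1.40 and 1.62 CPM in parental DMSO. The KD DMSO replicates lay on either side of the KD largazole ones, and the difference of -2.71 ± 0.65 did not pass (adjusted p = 0.168). Ddx58, which encodes the RNA sensor RIG-I, had a difference of -0.89 ± 0.20 (adjusted p = 0.150). Irf7 and Ddx58 were picked after their values were seen. DESeq2 called 3 members with a lower response, where it called 62 of all 12517 genes lower. Members were also called without KD DMSO replicate 2 and without either KD largazole replicate. Far more of all genes tested passed without a KD largazole replicate.

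On lists close to the drug's target and to general cell functions no member passed with edgeR over all 8 libraries. Over all genes tested 0.208% passed. Hdac1, Hdac2 and Hdac3, catalytic class I deacetylases, had differences of -0.25 (adjusted p = 0.555), 0.21 (adjusted p = 0.695) and -0.23 (adjusted p = 0.669). Of 36 tested genes of class I deacetylases and their corepressors none passed with edgeR, with 3 at an unadjusted p under 0.05, and 34 intervals lay within 2-fold. Over all genes tested 8.68% had an unadjusted p under 0.05 and 75.4% of intervals lay within 2-fold. Cdkn1a, the CDK inhibitor p21, had 209 and 178 CPM in KD largazole and 279 and 261 CPM in KD DMSO, against 162 and 157 CPM in parental largazole and 190 and 190 CPM in parental DMSO. It fell in both genotypes, and the difference was -0.23 (interval -0.51 to 0.05, adjusted p = 0.681). Of 31 proteasome genes and 38 nuclear-encoded genes of oxidative phosphorylation none passed with edgeR or reached an unadjusted p under 0.05, and the intervals lay within 2-fold for 31 and 35 of them. Of 30 ribosome biogenesis genes none passed, 9 had an unadjusted p under 0.05 and 27 were negative, with a median of -0.25. Of 34 peroxiredoxin, thioredoxin and glutathione genes, the family of the targeted gene, none passed. Among the 34, 4 had an unadjusted p under 0.05 and 32 intervals lay within 2-fold. Members of both lists had a lower response past the threshold without either KD largazole replicate, where far more of all genes tested did too. Neither DESeq2 nor limma-voom gave a lower response past the threshold for a member of these lists, nor of the synthetase, recombination and mitotic lists. With edgeR over all 8 libraries no member passed on the lists of cholesterol and fatty acid synthesis, class I antigen presentation, epithelial junctions, keratins, neuronal genes or p53 targets. Nor did one on those of selenoproteins, cytosolic heat shock, lysosome and autophagy, MAPK feedback, TGF-beta signalling or the circadian clock. With a library left out, members of several of these lists passed with a lower response. Among these lists were p53 targets, selenoproteins, cytosolic heat shock and MAPK feedback. Some of these lists were measured with little precision. Intervals lay within 2-fold for 3 of 12 keratin genes, 6 of 15 junction genes and 9 of 22 neuronal genes. Differences of circadian clock genes ran from -3.81 to 1.43.

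**Figure D5:**
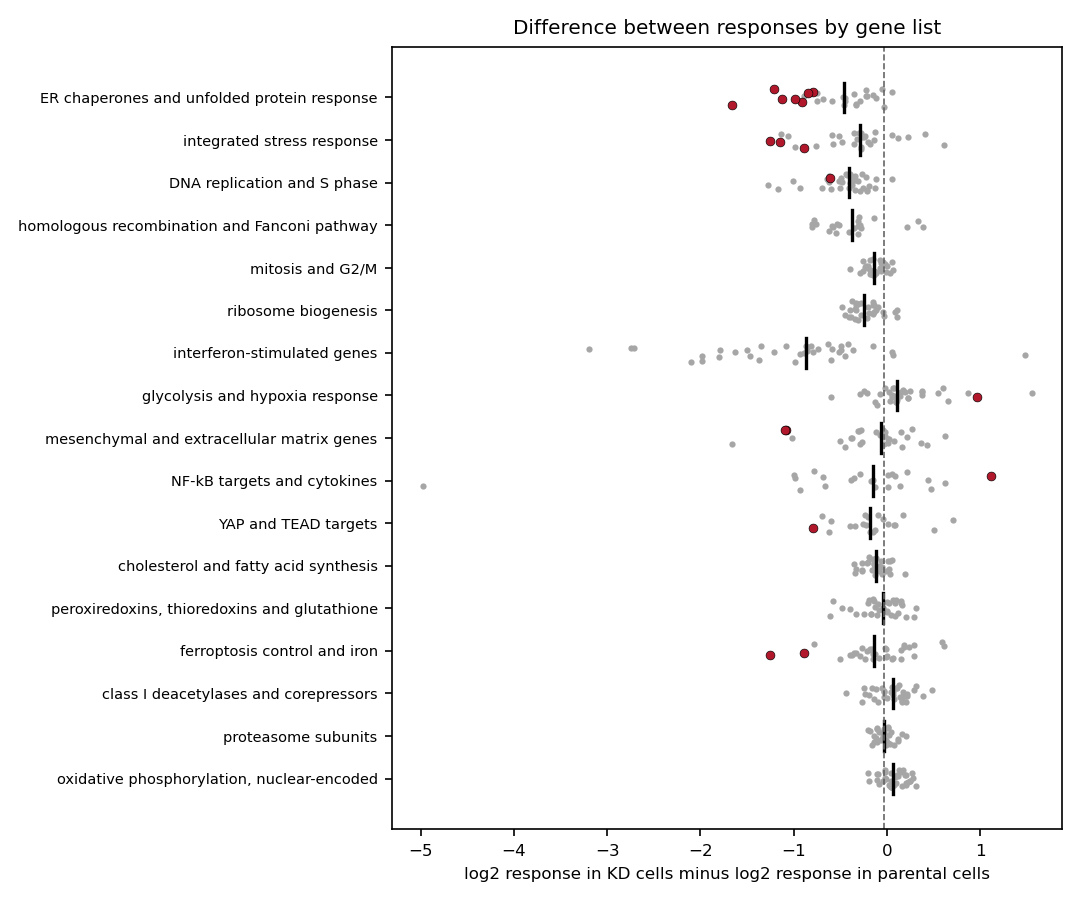
Log2 difference between responses, KD cells minus parental cells, for each tested member of 17 gene lists. Red points passed the threshold, grey points did not, black bars mark list medians and the dashed line the median of all genes tested. ER genes hold 7 red points, all on the negative side, and interferon-stimulated genes have the most negative median, -0.87, with no red point.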

How the data were processed

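Poly(A)-selected RNA of A223 cells was sequenced from stranded libraries, per the labels' protocols. The deposited table holds the authors' estimated counts per gene, 97.3% of them whole, and the genome build is mm10, per the submitters' processing notes. Which aligner and counter were used, and whether counting used strand, is not given in the sources used here. Columns were joined to groups by the labels. Estimated counts were rounded, and genes were filtered with filterByExpr (minimum count 10, minimum total 15). With edgeR 4.0.16 in R 4.3.3, TMM-scaled counts of all 8 libraries were fitted with 4 group means, and the difference between responses was tested by the quasi-likelihood F test with Benjamini-Hochberg adjustment over 12517 genes (threshold 0.05). The SE follows from F, as the absolute log2 value over its square root. The script was tested on simulated data. DESeq2 1.42.0, limma-voom (limma 3.58.1), other scalings, filters and single libraries left out were alternatives. CPM use the TMM library sizes.

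The members and gene lists were chosen with earlier results of these data known. Of 920 list genes 906 matched by symbol, 12 by an older symbol and 2 did not match. Named genes were Prdx6, the 12 largest positive and 12 largest negative differences among called genes with a group mean of at least 5 CPM, non-overlapping pairings and a symbol not based on a clone, up to 5 passing members of each list described, and Hspa5, Atf4, Ddit3, Clu, Gm5424, Cdkn1a, Hdac1, Hdac2, Hdac3, Gpx4 and Slc7a11 whatever their result. Promoters were printed for up to 6 passing members of the list with most calls. Spreadsheet dates stood in place of 27 gene symbols, 21 of them tested. Coordinates and transcripts come from GENCODE M21 on GRCm38. Windows come from RefSeq on GRCm38.p6.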

Additional observations from a re-analysis of the deposited data

Results flagged for a closer look

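The response to largazole differed between KD and parental cells by a test of the difference itself for 26 genes, and the values below are that difference, KD response minus parental response, on the log2 scale. It was negative for the ER genes Hspa5 (-1.66), Herpud1 (-1.21), Creld2 (-1.13), Pdia4 (-0.99), Hsp90b1 (-0.91), Hyou1 (-0.85) and Calr (-0.79), and for Slc7a11 (-1.26), Trib3 (-1.14) and Chac1 (-0.89). It was negative for Fen1 (-0.85), Fignl1 (-0.84) and Mcm6 (-0.61), which act on DNA, and for Odc1 (-0.89) and Cyr61 (-0.79). Among genes raised in both genotypes it was negative for Mcpt8 (-1.66), Loxl2 (-1.09), Thy1 (-1.08), Clu (-1.08), Rnase4 (-1.04) and Cited2 (-0.80). It was positive for Il33 (1.11), Bnip3 (0.97) and Itgbl1 (0.89). Gm5424 (9.86) shares nearly all of its sequence with Ass1 (-7.61), and the fitted values of both depend on the prior count.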

How the results depend on the processing

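DESeq2 called 83 genes, 21 higher and 62 lower in KD response, in place of 26, 4 and 22, and the fit with a replicate block called 104, 23 and 81. Deviations of same-numbered replicates correlated by 0.15 to 0.36 in 4 of 6 pairs of groups, among them all 3 pairs of KD largazole, KD DMSO and parental largazole, and by -0.01 and 0.0017 in the other 2, which hold parental DMSO. Not every pair exceeded 0.1 and the labels state no shared batch, so the block was kept as an alternative, and whether replicates 1 and 2 mark batches was not tested. Leaving out 1 library each gave 2 to 457 genes, 1 to 175 higher and 1 to 286 lower, 4352 to 7065 for the KD response and 4234 to 7834 for the parental response. The cause was not tested. The ER list had 7 lower members, 10 with DESeq2, 11 with the block and 1 to 16 with a library left out. With the block 7 in place of 3 integrated stress response genes and 8 in place of 1 replication genes were lower, and Ddit3 passed (adjusted p = 0.0234). The difference of Prdx6 (0.06) ranged from -0.11 without KD largazole replicate 1 to 0.22 without replicate 2, and that of Gpx4 (0.15) from -0.14 to 0.40, the last past the threshold (adjusted p = 0.0319). No called gene turned its direction in the settings run.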
